A study of Mus musculus with 6 samples.

Results

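The genes described here are 10 regulators of the actin cytoskeleton: the nucleators Fmn2, Spire1, Spire2 and Daam1, the small GTPases Cdc42, Rac1 and Rhoa, and the Cdc42-side adaptors Wasl, Cdc42ep3 and Pstpip1. They were chosen by gene symbol, with their levels in all 6 libraries and the difference between aminophylline and control already known, from 25631 genes listed by symbol and NCBI gene number. Differences between the groups are therefore given for them as a description, and no p-value of theirs is reported. Levels are in FPKM, fragments per kilobase of transcript scaled to library size. All 10 genes had an FPKM of 1 or more in 3 or more libraries, as did 10340 genes in all.

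RNA was sequenced from oocytes of 14-month-old ICR mice, with 3 control libraries (labelled aged and untreated) and 3 aminophylline libraries. Aminophylline, a theophylline derivative that inhibits phosphodiesterases, was given at 4 mM in the drinking water for 1 week and was followed by 3 weeks of water, while controls drank water alone. Mice of both groups received equine chorionic gonadotropin, and oocytes were released by puncture of large antral follicles. The numbers of mice and oocytes per library are not given in the sources used here, and nothing says that libraries came from separate mice, so any p-value measures only the spread between these libraries.

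Straight actin filaments in the mouse oocyte are built largely by the formin Fmn2 together with Spire1 and Spire2, which bind actin monomers and sit with Fmn2 on Rab11a-positive vesicles moved by myosin Vb. The resulting cytoplasmic mesh carries the meiotic spindle towards the cortex, so that the oocyte can divide into a large egg and a small polar body. Cdc42, Rac1 and RhoA are switches that are active when bound to GTP. Active Cdc42 at the cortex turns on N-WASP, the product of Wasl, which in turn activates the branched-filament nucleator Arp2/3.

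Libraries held 14112341 to 33641283 reads, and control library 2 was the smallest. The 10 oocyte markers (Zp1, Zp2, Zp3, Gdf9 and others) were all expressed, with summed FPKM of 8983 to 13995 in controls and 11160 to 13034 with aminophylline. Control library 1 stood apart in macrophage transcripts. Summed FPKM of 13 listed macrophage markers was 242 in that library and 83.7 to 104 in the other 5, and 10 of the 13 markers were highest there. Lyz2 had an FPKM of 66.4 and Fcer1g of 57.6 in control library 1, and neither passed 0.573 in any other library. Among the defining markers, Ptprc reached 0.192 and Adgre1 0.506 in control library 1, and Adgre1 was at 0 elsewhere, while C1qb was present at 72.3 to 99.8 in all 6 libraries. More macrophages and more RNA per macrophage cannot be told apart in bulk RNA. Summed granulosa and cumulus markers were 9.53 to 17.5 in controls and 10.3 to 14.4 with aminophylline, and summed T cell markers were 5.97 to 10.7 and 6.06 to 8.96. Most of the granulosa sum was Cyp19a1 (7.37 to 15.7 over libraries), while Inha reached 1.66, Fshr 0.27 and Foxl2 0.197. Most of the T cell sum was Cd5 (5.51 to 10.5), while Cd4 reached 0.417, Cd3g 0.145 and Lck 0.0887. Stroma and theca markers summed to at most 1.9 in any library, and erythrocyte markers to at most 0.585.

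Cdc42ep3 and Pstpip1 were the members whose control and aminophylline libraries did not overlap. Transcripts of both were more than 2 times as abundant in oocytes of aminophylline-treated mice. The other 8 genes overlapped between the groups, including every nucleator and every GTPase. Over all genes tested, groups did not overlap for 7.51% on the higher side and for 4.96% on the lower. The members were chosen with this contrast known, so nothing is read from their counts. In mean log2(FPKM + 1), 6 of the 10 genes were higher and 4 were lower with aminophylline, with a median difference of 0.13 beside 0.10 over the 10340 genes.

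Across those 10340 genes, limma on log2(FPKM + 1) called 215 genes higher (2.08%) and 117 lower (1.13%) with aminophylline at an unadjusted p under 0.05 and a fold change over 1.5. After Benjamini-Hochberg adjustment 0 genes (0%) passed 0.05, while 750 genes had an unadjusted p under 0.05. There was no overlap between the control and aminophylline libraries for 777 genes higher with aminophylline (7.51%) and for 513 lower (4.96%). Higher calls made up 64.8% of all calls on the deposited scale, 49.3% after rescaling each library to the same sum, 36.8% after median centring and 36.9% after quantile normalization. The members were selected on this contrast, so whether they met this rule is not given.

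**Figure D1:**
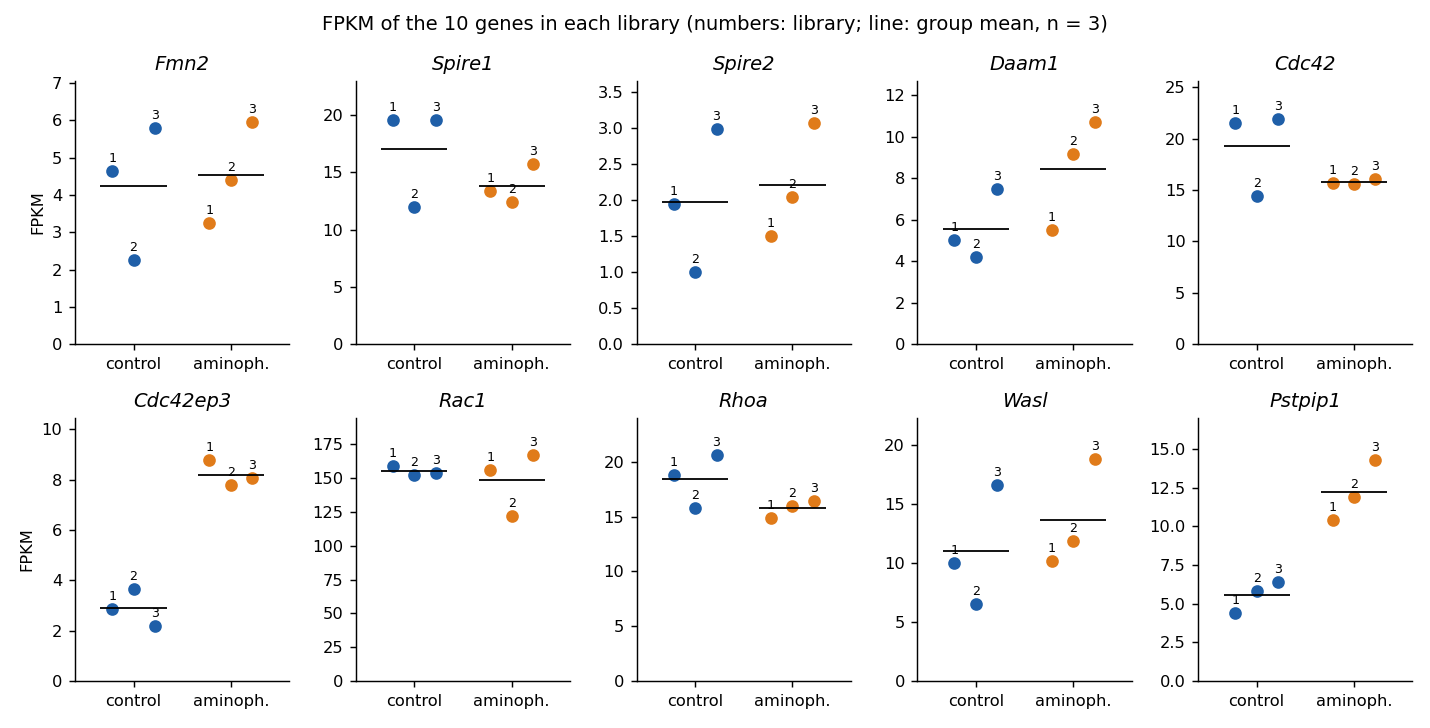
FPKM of each of the 10 genes (vertical axes, linear from 0, a separate scale for each gene) in the 3 control and 3 aminophylline libraries; points are libraries, the number beside a point is the library's number in its group, and lines are group means. For Cdc42ep3 and Pstpip1 every aminophylline library lies above every control library, and for the other 8 genes the groups overlap.

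Fmn2, the formin of the oocyte mesh, had FPKM of 4.65, 2.25 and 5.8 in control libraries 1, 2 and 3 and of 3.25, 4.4 and 5.95 in aminophylline libraries 1, 2 and 3. Means were 4.23 ± 1.81 in controls and 4.53 ± 1.36 with aminophylline (SD, n = 3 each), a difference of 0.12 in log2(FPKM + 1) with an SE of 0.304. Control library 2 was lowest, control library 3 and aminophylline library 3 were highest, and the groups overlapped. The sign of the difference turned when control library 2 or aminophylline library 3 was left out, and the difference ranged from -0.19 to 0.34 over the alternatives.

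Spire1, whose product hands monomers to the formin, was the most abundant nucleator of the set. It reached 19.6, 12 and 19.6 FPKM in controls and 13.4, 12.4 and 15.7 with aminophylline. Means were 17.1 ± 4.38 and 13.8 ± 1.68 (SD, n = 3 each), and the log2 difference was -0.26 (SE 0.226). The lowest value of all 6 was that of control library 2, so the groups overlapped although the control mean was higher. The difference kept its negative sign in all 15 alternatives, between -0.48 and -0.15. Among these, the other filters, the unmoderated model and the replicate block leave a difference unchanged by construction.

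Spire2, the paralog that shares this role with Spire1 in mouse oocytes, was the least abundant of the 10 genes. Its FPKM was 1.94, 1 and 2.99 in controls and 1.5, 2.04 and 3.07 with aminophylline, which rest on 33 to 222 reads per library. The log2 difference was 0.13 (SE 0.284), and its sign turned without control library 2 or without aminophylline library 3. As for Fmn2, control library 2 was lowest and aminophylline library 3 was highest.

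Daam1, a formin activated downstream of Wnt signals, had FPKM of 5.01, 4.19 and 7.5 in controls and of 5.51, 9.17 and 10.7 with aminophylline. Means were 5.57 ± 1.72 and 8.46 ± 2.67 (SD, n = 3 each), a ratio of 1.52 and a log2 difference of 0.52 (SE 0.279). Aminophylline library 1 lay below control library 3, so the groups overlapped. The difference ranged from 0.34 to 0.76 over 15 alternatives.

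Cdc42, the GTPase required for polar body extrusion, had FPKM of 21.5, 14.4 and 21.9 in controls and of 15.7, 15.6 and 16.1 with aminophylline. The aminophylline libraries were close together (coefficient of variation 1.67%) and the controls were spread (22%), with control library 2 below all others and control libraries 1 and 3 above all others. Means were 19.3 ± 4.23 and 15.8 ± 0.263 (SD, n = 3 each), and the log2 difference was -0.25 (SE 0.205), between -0.44 and -0.15 over 15 alternatives.

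Rhoa, whose product drives the contractile ring through ROCK and citron kinase, had a like arrangement, with 18.8, 15.8 and 20.6 FPKM in controls and 14.9, 16 and 16.4 with aminophylline. Its log2 difference was -0.20 (SE 0.184), and the groups overlapped through control library 2.

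Rac1, the GTPase that acts on lamellipodial actin through the WAVE complex, was the most abundant member as deposited. It reached 159, 152 and 154 FPKM in controls and 156, 122 and 167 with aminophylline. Here the controls were close together (coefficient of variation 2.15%) and the aminophylline libraries were spread (15.7%). The log2 difference was -0.07 (SE 0.163) and turned positive without aminophylline library 2. Over the 10 genes the coefficient of variation was larger in controls for 8.

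Wasl, which encodes N-WASP, had FPKM of 9.98, 6.53 and 16.6 in controls and of 10.2, 11.9 and 18.8 with aminophylline. Means were 11 ± 5.1 and 13.6 ± 4.57 (SD, n = 3 each), and the log2 difference of 0.33 (SE 0.317) was about as large as its error. It ranged from 0.03 to 0.64 over the alternatives.

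Cdc42ep3 encodes a Borg protein that binds GTP-loaded Cdc42 and septins. Its FPKM was 2.86, 3.65 and 2.19 in controls and 8.77, 7.78 and 8.06 with aminophylline, from 230, 123 and 166 reads and from 591, 460 and 589 reads. The lowest aminophylline library was more than 2 times the highest control. Means were 2.9 ± 0.733 and 8.2 ± 0.509 (SD, n = 3 each), a ratio of 2.83 and a log2 difference of 1.25 (SE 0.222). The difference was 1.34, 0.92 and 1.51 between same-numbered libraries, and 1.12 to 1.56 over 15 alternatives.

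Pstpip1 encodes an F-BAR adaptor that binds WASP and PEST-type tyrosine phosphatases and is best known from leukocytes. Its FPKM was 4.42, 5.78 and 6.41 in controls and 10.4, 11.9 and 14.3 with aminophylline, from 348, 191 and 477 reads and from 689, 691 and 1022 reads. Means were 5.54 ± 1.02 and 12.2 ± 1.94 (SD, n = 3 each), a ratio of 2.2 and a log2 difference of 1.02 (SE 0.219). Differences between same-numbered libraries were 1.08, 0.93 and 1.04. The difference ranged from 0.89, without control library 1, to 1.16 over 15 alternatives. Its lowest value was that of control library 1, where summed macrophage markers were 242. In the aminophylline libraries that sum was 84.1 to 103, of which C1qb alone made up 79.2 to 98.7, while Ptprc was at most 0.0167 and Adgre1 was at 0. The part of macrophage RNA in the Pstpip1 values was not tested.

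**Figure D2:**
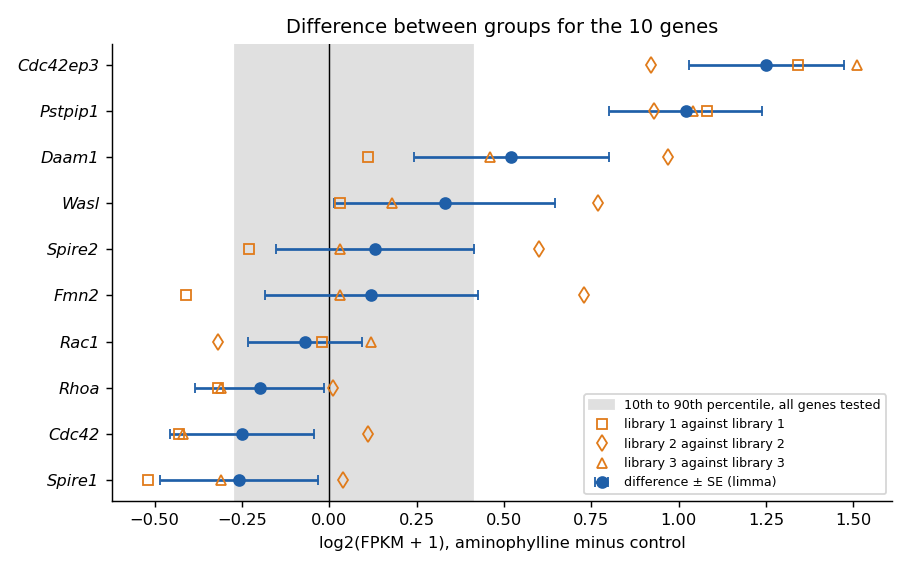
Difference in log2(FPKM + 1), aminophylline minus control, for each of the 10 genes; filled circles with bars are the limma estimate ± SE over 3 and 3 libraries, open symbols are the 3 same-numbered library pairs, and the grey band runs from the 10th to the 90th percentile of all genes tested (-0.27 to 0.41). Cdc42ep3 (1.25) and Pstpip1 (1.02) lie well right of the band with all 3 pairs, Daam1 (0.52) lies just right of it, and for Fmn2, Spire1, Spire2, Cdc42, Rac1 and Rhoa the pairs fall on both sides of 0.

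The same libraries stood at the ends of the range for most members. Control library 2 was the lowest control for 8 of the 10 genes and the lowest of all 6 libraries for 6, and control library 3 was the highest control for 8. Aminophylline library 3 was the highest aminophylline library for 9 genes and the highest of all for 6. Control library 2 also had the fewest reads, and the part of depth in these values was not tested.

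Across the 6 libraries some members fell into patterns of like order. These are given as Pearson r of log2(FPKM + 1), with all points sharing the same 6 libraries and their depth. Each r includes any difference between the groups, which was known when the members were chosen. Fmn2 and Spire2 had r = 0.98, Spire2 and Wasl 0.97, and Fmn2 and Wasl 0.93. Another pattern held Spire1 with Cdc42 (0.96), Cdc42 with Rhoa (0.93) and Spire1 with Rhoa (0.89). For Spire1 and Fmn2, whose products work together, r was 0.70, and for Spire1 and Rac1 it was 0.47. Cdc42ep3 and Pstpip1 had r = 0.88, and Cdc42ep3 had negative r with Rhoa (-0.83) and Cdc42 (-0.71). Within the groups Cdc42ep3 and Pstpip1 did not share an order. Control library 3 was the lowest control for Cdc42ep3 and the highest for Pstpip1. Aminophylline library 1 was the highest of its group for Cdc42ep3 and the lowest for Pstpip1. Of the 45 pairs of members, 33 had a positive r.

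Levels of different genes were compared per length. On the deposited FPKM, averaged over 6 libraries, Rac1 was first with 152, followed by Cdc42 with 17.5, Rhoa with 17.1, Spire1 with 15.5, Wasl with 12.3, Pstpip1 with 8.87, Daam1 with 7.01, Cdc42ep3 with 5.55, Fmn2 with 4.38 and Spire2 with 2.09. Rac1 alone was apart from its neighbour in every library, and the ranges over libraries of all other neighbours in this order overlapped.

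The order depends on the transcript length used. The length behind each deposited value was recovered with the reads, and for Cdc42 it was 15975 bases, 7.58 times the 2108 bases of the longest protein-coding transcript in GENCODE M21. For Fmn2 the recovered length was 16962 bases against 6442 (a ratio of 2.63), and for Spire1 it was 11994 against 5405 (2.22). Over 8543 tested genes matched to GENCODE the median ratio was 1.05, 0.258% had a ratio as high as that of Cdc42, and 9.15% had a ratio over 2. Rac1 went the other way, with 2364 bases against 4159 (0.568). The 6 remaining members had ratios of 1 to 1.26.

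With the same reads per kilobase of that longest protein-coding transcript, Cdc42 came first with a mean of 133 (109 to 166 over libraries) followed by Rac1 with 86.2 (69.4 to 94.8) and Spire1 with 34.3 (26.7 to 43.6). Next came Rhoa with 19.1 (16.7 to 23), Wasl with 15.4, Fmn2 with 11.5, Pstpip1 with 11.1, Daam1 with 8.87, Cdc42ep3 with 5.85 and Spire2 with 2.09. On this scale Cdc42, Rac1, Spire1 and Rhoa were apart from each other in every library, and all neighbours below Rhoa overlapped. Fmn2 stood at position 6 on this scale and at position 9 on the deposited scale. A length common to all libraries cancels in the ratio of the groups, and this alternative was chosen after the data were seen.

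**Figure D3:**
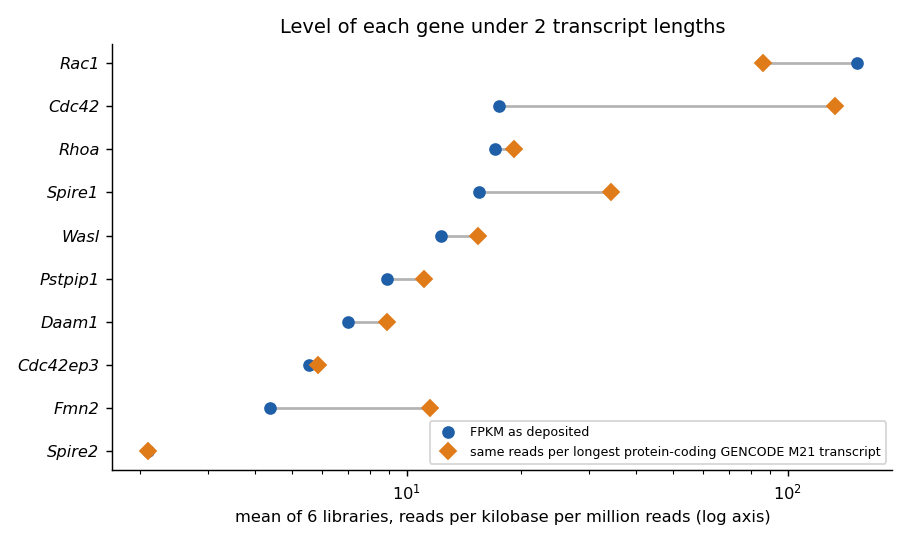
Mean level of each gene over the 6 libraries in reads per kilobase scaled to library size (horizontal log axis), with circles for FPKM as deposited and diamonds for the same reads divided by the longest protein-coding GENCODE M21 transcript. Cdc42 moves from 17.5 to 133 and passes Rac1, which moves from 152 to 86.2, while Spire2 stays at 2.09.

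In GRCm38, with GENCODE M21, Fmn2 (NCBI gene 54418) lies on chromosome 1 from 174501825 to 174822729, Daam1 (208846) on chromosome 12 from 71831078 to 71992333, Spire2 (234857) on chromosome 8 from 123332713 to 123369515, Rhoa (11848) on chromosome 9 from 108306129 to 108337934 and Pstpip1 (19200) on chromosome 9 from 56089962 to 56128888, all on the plus strand. On the minus strand lie Cdc42 (12540) on chromosome 4 from 137319696 to 137357720, Cdc42ep3 (260409) on chromosome 17 from 79333727 to 79355091, Rac1 (19353) on chromosome 5 from 143503634 to 143528036, Wasl (73178) on chromosome 6 from 24613805 to 24665009 and Spire1 (68166) on chromosome 18 from 67488209 to 67610790.

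Whether reads were counted by strand is not given in the sources used here, and exons of 3 members overlap those of a gene on the other strand. For Cdc42ep3 this is the noncoding gene Gm17315, with FPKM of 0 to 0.0126. For Rhoa it is Tcta (1.98 to 4.58) together with the antisense gene Gm37401, for which no value was used. For Rac1 it is Daglb, with FPKM of 23.8 to 49. Without counting by strand, reads of Rac1 and Daglb in the shared stretch cannot be told apart.

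Close relatives of the members were mostly near 0, which bears on reads shared between paralogs. Fmn1 ranged from 0.333 to 0.492 FPKM, Daam2 reached at most 0.0692, Was 0.0169 and Rhoq 0.0979. RhoB and RhoC transcripts were low as well, with Rhob at 0.0452 to 0.654 and Rhoc at 0.066 to 1.92. Rac3 was present at 2.73 to 7.71 FPKM. Rac2, the GTPase of blood cells, was highest in control library 1 with 1.01, the library with the most macrophage transcripts. In the Borg family Cdc42ep1, Cdc42ep4 and Cdc42ep5 stayed at or under 0.562, while Cdc42ep2 was more abundant than Cdc42ep3 in every library.

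Cdc42ep2 is the Borg relative to set beside Cdc42ep3. It had FPKM of 37.2, 50.7 and 49.6 in controls and of 56, 64.6 and 57.8 with aminophylline. All 3 aminophylline libraries were above all controls, but the log2 difference was 0.38 (SE 0.177) and the limma adjusted p was 0.688. Pstpip2, the F-BAR relative of Pstpip1, ranged from 6.81 to 11.9 FPKM with a log2 difference of 0.05, which was -0.04 after median centring.

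Other genes of the pathway were taken from 10 lists by function, with 192 genes named, 190 listed and 103 tested. Of the 103, 2 were called higher (Fmnl3 and Arpc3) and 0 lower, against 2.08% and 1.13% of all genes. At an unadjusted limma p under 0.05 there were 5 of the 103, beside 750 of the 10340 genes, and at an adjusted p under 0.05 there were 0. Groups did not overlap for 9 of the 103 on the higher side and for 3 on the lower, beside 7.51% and 4.96% of all genes. The median difference was 0.07 beside 0.10 for all genes, with 67 positive and 36 negative. With a replicate block for same-numbered libraries 4 were called (Diaph1 and Pak4 in addition), and Fmnl3 and Arpc3 had limma adjusted p under 0.05. The sources used here do not say that a number marks a pair.

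Of 13 other formins 4 were tested, 1 was called, and all 4 differences were positive, with a median of 0.51. Fmnl3, a formin of protrusive actin, had FPKM of 2.75, 4.81 and 6.19 in controls and of 7.32, 9.55 and 12 with aminophylline. Groups did not overlap, and the log2 difference was 0.95 (SE 0.28), between 0.69 and 1.16 over 15 alternatives. Its limma adjusted p was 0.653, with a range from 0.0374 with the replicate block to 0.999 over all fits. Diaph1, a formin activated by RhoA, had FPKM of 2, 2.45 and 4.5 in controls and of 3.73, 5.28 and 5.53 with aminophylline, with a difference of 0.59. It met the call rule with the block, at an unadjusted limma p of 0.0104, and not without it, at 0.0512.

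All 10 subunits of Arp2/3 were tested, 1 was called, and the list's median was -0.05 with 4 positive and 6 negative differences. Arpc3, a small subunit of the complex, had FPKM of 61.1, 118 and 45.9 in controls and of 201, 134 and 178 with aminophylline. The log2 difference was 1.27 (SE 0.298), between 0.98 and 1.65 over 15 alternatives. Its limma adjusted p was 0.651, with a range over fits from 0.0125, with the block, to 0.999. Between same-numbered libraries the difference was 1.70, 0.18 and 1.93. Arpc1a had groups apart as well (difference 0.56), whereas Actr2, an actin-related core subunit, had a difference of -0.47 with overlapping groups.

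Among WASP family genes and partners 9 of 19 were tested and 0 were called, with a median of 0.25 and 8 positive differences. Brk1, a WAVE complex subunit, was the most abundant with a mean of 127 FPKM (difference 0.22, groups apart), and the adaptor Nck1 averaged 25.3 (difference -0.42). Whamm, a Golgi-associated nucleation promoter, had an unadjusted limma p of 0.032 and a difference of 0.57.

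Among other effectors of Cdc42 and Rac 17 of 26 were tested and 0 were called, with a median of 0.29 and 13 positive differences. Groups did not overlap for 3 of the 17 on the higher side and for 1 on the lower, beside 7.51% and 4.96% of all genes. Cdc42se2, a small Cdc42-binding effector, averaged 122 FPKM with a difference of -0.14. The kinase Pak4 had a difference of 0.61, with a limma p of 0.0501 without the block and of 0.00739 with it, where it met the call rule.

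RhoA effectors (7 of 13 tested, median 0.01) and guanine nucleotide exchange factors, GTPase-activating proteins and dissociation inhibitors (17 of 41 tested, median 0.07) each had 0 calls. The RhoA effectors Rhpn2 and Rock1 averaged 63.8 and 28.6 FPKM. Tiam1, an exchange factor for Rac, had a difference of 0.55 with groups apart and an unadjusted limma p of 0.0275.

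The vesicle partners of Fmn2 and Spire had 5 of 11 genes tested, 0 calls and a median of 0.01. Rab11a was abundant at 293 to 318 FPKM with a difference of 0.01 (-0.07 after median centring), and Myo5b averaged 10.6 with a difference of 0.29. Genes around Pstpip1 (5 of 7 tested) had 0 calls and a median of 0.05.

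Actin and actin-binding genes (23 of 32 tested) had 0 calls, a median of -0.08, 11 positive and 12 negative differences. Tmsb10, a monomer-binding thymosin, averaged 484 FPKM, and Rdx, which links actin to the membrane, averaged 399. Dstn, which severs and depolymerises filaments, had FPKM of 60.2, 50.6 and 60.7 in controls and of 44, 39.5 and 38.4 with aminophylline. All aminophylline libraries were below all controls, with a log2 difference of -0.48 (SE 0.163), an unadjusted limma p of 0.0135 and an adjusted p of 0.676. Tpm1 had groups apart on the higher side, with a difference of 0.28. On each side this was 1 of the 23 tested genes, beside 7.51% higher and 4.96% lower of all genes. The most negative difference of any list, -1.18 for Tmsb4x (named after its values were seen), rests on control library 1. Its FPKM was 144, 3.29 and 0.0332 in controls and 1.76, 3.03 and 3.94 with aminophylline, and without that library the difference was 0.85. The high value is in the library with the most macrophage transcripts, whose part in it was not tested.

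**Figure D4:**
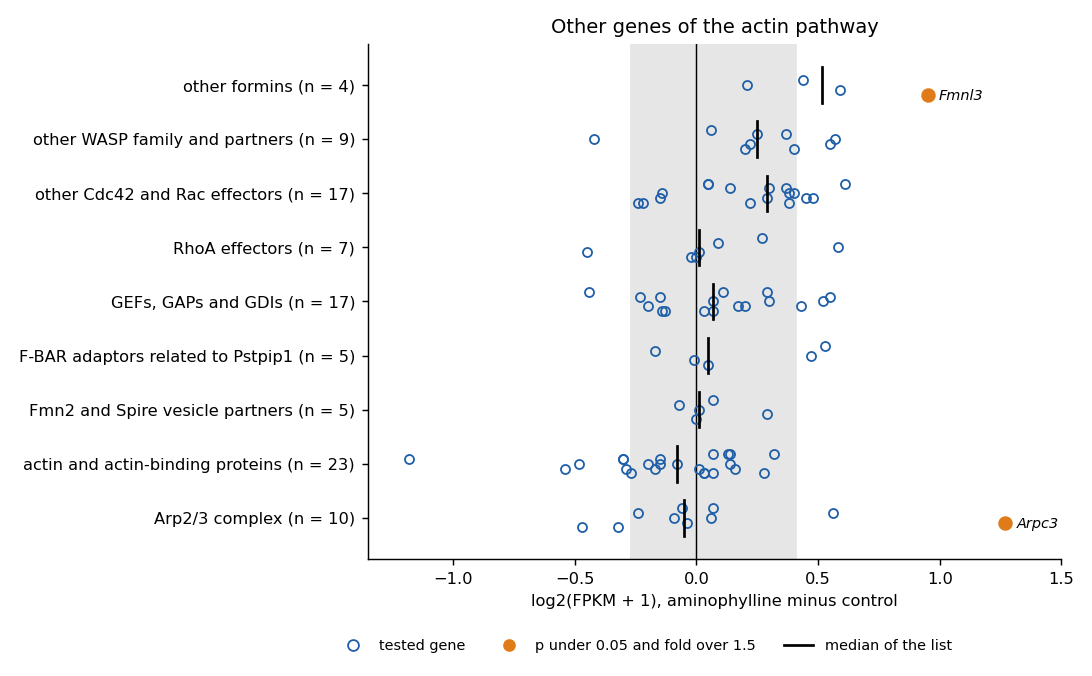
Difference in log2(FPKM + 1), aminophylline minus control, for the tested genes of 9 of the 10 lists (rows, n tested genes each); open circles are genes not called, filled circles are genes with a limma p under 0.05 and a fold change over 1.5, black bars are list medians and the grey band is the 10th to 90th percentile of all genes tested (-0.27 to 0.41). Fmnl3 (0.95) and Arpc3 (1.27) are the called genes, and the point at -1.18 is Tmsb4x.

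The upstream sequences of Cdc42ep3 and Pstpip1 are shown because these were the members whose groups did not overlap. Both are the 250 bases before the RefSeq start on GRCm38.p6, written in the direction of transcription, with matches to the GC box in capitals (letters GGGCGG, which read CCGCCC on the opposite strand). For Cdc42ep3 the stretch is chr17:79355092-79355341 on the minus strand, and for Pstpip1 it is chr9:56089726-56089975 on the plus strand. GENCODE M21 starts Pstpip1 at 56089962, so the last bases of its stretch lie within the gene in that annotation.
Cdc42ep3: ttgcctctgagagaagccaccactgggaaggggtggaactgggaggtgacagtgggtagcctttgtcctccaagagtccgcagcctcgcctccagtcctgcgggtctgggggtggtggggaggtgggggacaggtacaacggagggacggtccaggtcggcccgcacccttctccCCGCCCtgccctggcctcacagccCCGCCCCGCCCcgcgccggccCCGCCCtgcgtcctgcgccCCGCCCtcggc
Pstpip1: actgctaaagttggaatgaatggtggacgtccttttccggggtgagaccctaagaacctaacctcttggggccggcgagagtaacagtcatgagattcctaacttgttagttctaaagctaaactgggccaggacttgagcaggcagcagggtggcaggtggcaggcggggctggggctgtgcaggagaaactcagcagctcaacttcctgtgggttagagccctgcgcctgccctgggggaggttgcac

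The Cdc42ep3 stretch had 72.4% G and C and 18 CpG dinucleotides, and the Pstpip1 stretch 56.8% and 6. Over 32851 RefSeq stretches of the same length the medians were 52.4% and 6. GC boxes of Cdc42ep3 numbered 5, all on the opposite strand, starting 75, 51, 46, 30 and 11 bases before the start, with a pair of them sharing a base.

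An entry was found for 8 of the 10 members, and not for Spire1 or Rac1. On both strands, the full cAMP response element TGACGTCA was in 0 of the 8 stretches and in 1.55% of all stretches. Its core TGACG, which the full element contains, was in 1 (Daam1) and in 17.8% of all. The GC box was in 7 of the 8, all but Pstpip1, and in 32.7% of all. That share covers stretches whether or not the gene was expressed here, and none was taken for stretches of like G and C content. CCAAT was in 3 (33.8% of all), TATAAA in 1, that of Cdc42 (12.4%), and the E-box CACGTG in 0 (6.02%). These are matches of letters in a window and say nothing about binding of a factor.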

How the data were processed

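RNA of 6 oocyte libraries (3 per group, TRIzol extraction, VAHTS Universal V6 kit) was analysed. The authors deposited FPKM per gene, scaled to gene length and library size and not otherwise normalised between libraries. The aligner, the counter and the strand setting are not given in the sources used here, and the submitters' processing notes name GRCm38 and mm10. Groups were taken from the labels. Member genes and lists were chosen with earlier results of these data known.

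Whole reads were recovered from ratios of the deposited FPKM. Of 123194 values above 0, 100% were whole within 0.0001 reads. The length of each gene was chosen from its own values to make them whole, so that share is no check of the recovery. Totals were 14112341 to 33641283 reads, and the listed genes held 99.573% to 99.631% of them. The least deep member value rested on 33 reads.

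Genes with FPKM of 1 or more in 3 or more libraries were fitted with limma 3.58.1 (R 4.3.3, trend, two-sided) on log2(FPKM + 1), which understates changes of low genes. A gene was called at an unadjusted p under 0.05 and a fold change over 1.5 on that scale. P-values were adjusted by Benjamini-Hochberg over all 10340 genes. The script was tested on simulated data. Count tables were handled in Python 3.11.15 with pandas 2.3.3 and numpy 2.4.6, and plots were drawn with matplotlib 3.10.9.

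The labels number the libraries 1 to 3 in both groups, and the sources used here do not say that a number marks shared mice or a shared day. Departures from the group mean correlated between libraries of like number at 0.138, 0.14 and 0.552 over the tested genes. Libraries of unlike number were not compared, so these values do not show that a number marks a pair. A fit with the number as a replicate block was set beside the main one. Other alternatives were a pseudocount of 0.1, no filter, a minimum mean FPKM of 5, rescaling to the same sum, median centring, quantile normalization, an unmoderated model, voom on the recovered reads and each library left out. Named were all members, every called gene of a list (up to 4), up to 2 genes of highest mean FPKM where none was called, and close paralogs. Tmsb4x and the genes named for a p, for the block, for groups apart or for a negative difference were chosen after their values were seen. The values of 1 list are not reported here, though its genes are in the totals over lists. Upstream sequences were read from RefSeq (GRCm38.p6), positions and transcript lengths from GENCODE M21.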

Additional observations from a re-analysis of the deposited data

How the results depend on the processing

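The differences of Fmn2 and Spire2 changed sign in 2 alternatives and that of Rac1 in 1, all by leaving out 1 library. The other members kept their sign. The other filters, the unmoderated model and the replicate block cannot change a member's difference, so they say nothing about its stability. With a replicate block for same-numbered libraries, 47 genes passed an adjusted p of 0.05 in place of 0, 2 formins and 1 Cdc42 or Rac effector were called, and 4 genes of all lists, and the block changed no other count of calls by over 1.5 times. A pseudocount of 0.1 gave calls for 2 formins, 1 WASP gene, 1 effector and 1 exchange factor, 6 in all lists. Voom gave 188 lower genes, 2 formins, 1 WASP gene, 1 effector, 1 exchange factor and 1 actin gene, 7 in all lists. Genes called higher numbered 119 with a mean FPKM of at least 5, where 5885 genes were tested in place of 10340. Calls in both directions made up 3.4% of the genes in that fit, beside 3.21% in the main fit. After median centring 132 genes were called higher and 227 lower, with a call for 1 actin gene. Quantile normalization gave 127 higher and 217 lower, and the unmoderated model 99 and 59. The cause was not tested.

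Leaving out each library gave 123 to 876 higher and 60 to 403 lower genes, the most higher calls without control library 3. Calls ranged from 1 to 3 for other formins, 0 to 3 for WASP genes and 0 to 4 for effectors. They ranged from 0 to 1 for RhoA effectors, 0 to 3 for exchange factors and their like and 0 to 2 for F-BAR relatives. For actin genes there were 0 to 1, for Arp2/3 1 to 2 and for all lists 2 to 19. Of all genes, 1.77% to 9.73% were called. Tmsb4x turned from -1.18 to 0.85 without control library 1 and ranged down to -2.72, without control library 3. Rab11a turned negative after rescaling to the same sum (-0.04), median centring (-0.07) and quantile normalization (-0.06), and Pstpip2 after the last of these (-0.03) and median centring (-0.04). Leaving out single libraries moved Rab11a to between -0.02 and 0.04 and Pstpip2 to between -0.16 and 0.2. Spire2 rests on the fewest reads, and 3 libraries a group limit every value.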

Other observations

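Among 4272 tested genes with a mean FPKM of at least 10, those whose log2(FPKM + 1) over the 6 libraries followed Fmn2 most closely by Pearson r were Naa30 (0.999), Suz12 (0.996) and Rnf2 (0.996). Naa30 is an N-terminal acetyltransferase subunit, and Suz12 and Rnf2 are subunits of Polycomb complexes. For Cdc42, compared with 4271 genes, they were Shcbp1 (over 0.999), Il17f (0.994) and Stx7 (0.993). For Pstpip1 they were Sugt1 (0.992), Mbl2 (0.989) and Mphosph8 (0.988). All points share the same 6 libraries and their depth, and each list holds the highest values of all these comparisons. Each r also includes any difference between the groups.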
